A study of Mus musculus with 12 samples.

Results

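The 6 listed genes of the small proline-rich protein family of the mouse, Sprr1a, Sprr2b, Sprr2d, Sprr2e, Sprr2f and Sprr2g, were followed through the estrous cycle of the uterus. They were chosen by name with earlier results of these data known, as were the gene lists and markers used below. Counts of genes called in these lists are therefore not read against the share over all genes. All 6 were among the 17 genes of the annotation whose symbols begin with Sprr. Transcripts of 35896 genes were present. The samples were 12 whole uteri of wild-type female Swiss Webster mice aged 8 to 12 weeks, 3 in each of proestrus (replicates 1, 2 and 3), estrus (3, 4 and 5), metestrus (5, 6 and 7) and diestrus (3, 4 and 5). No animal carried a transgene or received a treatment according to the labels, and the labels do not say how the stage was determined. Polyadenylated RNA was read with 3' TagSeq, in which each read comes from close to the 3' end of a polyadenylated molecule.

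Small proline-rich proteins are short, proline-rich and cysteine-rich precursors of the cornified envelope, the cross-linked protein layer beneath the membrane of differentiated epithelial cells. Transglutaminases join them to one another and to other envelope proteins, and their genes lie together in the epidermal differentiation complex. The uterus is lined by a simple epithelium that does not cornify, and there the Sprr2 genes are known as genes induced by estrogen in epithelial cells.

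The 17 genes lie between positions 92215799 and 92500493 of chromosome 3 (GRCm38, GENCODE M21). The Sprr2 members are on the forward strand, with Sprr2b at chr3:92316620-92318085 (ENSMUSG00000050092), Sprr2d at chr3:92339140-92340873 (ENSMUSG00000042212), Sprr2e at chr3:92352143-92353449 (ENSMUSG00000055030), Sprr2f at chr3:92365187-92366442 (ENSMUSG00000050635) and Sprr2g at chr3:92373915-92375229 (ENSMUSG00000046203). Sprr1a is on the reverse strand at chr3:92483952-92485895 (ENSMUSG00000050359). None of the 6 overlaps another annotated gene. Sprr2g is annotated as a polymorphic pseudogene and the other members as protein-coding genes.

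The coding sequences of the Sprr2 genes share stretches with one another, to an extent that differs between genes. The share of each transcript's 31-base words that also occur in another gene was therefore measured first. It is not a share of reads that could not be assigned. The GENCODE M21 coding sequences of 3 members are shown as examples: Sprr2f, the highest of the 6 in level, Sprr2e, one of the lowest, and Sprr2b, whose counts were in part divided between genes. Capitals mark bases inside a 31-base word that also occurs in a transcript of another gene, and lower case marks bases outside such words.
Sprr2f: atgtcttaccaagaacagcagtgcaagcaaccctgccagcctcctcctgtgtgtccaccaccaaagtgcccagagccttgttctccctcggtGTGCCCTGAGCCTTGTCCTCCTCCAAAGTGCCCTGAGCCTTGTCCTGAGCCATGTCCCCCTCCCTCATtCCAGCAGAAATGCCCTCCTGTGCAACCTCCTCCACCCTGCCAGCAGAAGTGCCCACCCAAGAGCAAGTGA
Sprr2e: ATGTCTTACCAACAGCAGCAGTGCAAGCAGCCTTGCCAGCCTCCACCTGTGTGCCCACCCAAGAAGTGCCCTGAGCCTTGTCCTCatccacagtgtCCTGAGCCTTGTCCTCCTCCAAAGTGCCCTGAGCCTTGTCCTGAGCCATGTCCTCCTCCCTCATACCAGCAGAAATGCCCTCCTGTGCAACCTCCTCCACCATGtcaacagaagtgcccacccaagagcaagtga
Sprr2b: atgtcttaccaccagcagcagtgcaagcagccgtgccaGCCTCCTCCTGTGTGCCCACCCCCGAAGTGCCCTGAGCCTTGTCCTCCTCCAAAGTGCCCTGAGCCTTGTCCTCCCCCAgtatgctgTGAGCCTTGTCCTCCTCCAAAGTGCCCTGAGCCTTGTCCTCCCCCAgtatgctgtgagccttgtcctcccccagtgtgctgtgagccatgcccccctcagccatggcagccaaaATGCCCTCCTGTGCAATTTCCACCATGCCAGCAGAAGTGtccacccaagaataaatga
Of the 231 coding bases of Sprr2f, 59.7% lay in such shared words, against 81.8% of the 231 bases of Sprr2e and 55.2% of the 297 bases of Sprr2b. Proline codons made up 39.5% of the 76 codons of Sprr2f before the stop, and cysteine codons 17.1%. Sprr1a, with 435 coding bases, held none of these shared words.

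Whole transcripts include the untranslated ends where 3' reads fall. Their share is given in words, not in bases inside shared words, so it cannot be set against the coding shares above. The share of 31-base words also found in another gene was 32.2% for Sprr2b, 21.1% for Sprr2e, 10.3% for Sprr2d, 7.95% for Sprr2f, 3.22% for the 651-base transcript of Sprr2g and 0% for Sprr1a. In the last 500 bases it was 25.3%, 11.7%, 4.04%, 9.79%, 2.77% and 0% in the same order. The words of Sprr2b were shared mainly with Sprr2a1, those of Sprr2e with Sprr2i, and those of Sprr2d and Sprr2f with Sprr2e. The gene sums of the estimated counts were whole numbers in all 12 samples for Sprr1a, Sprr2d, Sprr2e, Sprr2f and Sprr2g. For Sprr2b they were not whole in 2 samples, estrus replicates 4 and 5, which held 85.8% of its counts, so its estrus level includes reads divided between it and genes with which it shares words and is uncertain. The 2 transcripts of Sprr2g, of which 1 has an open reading frame of 231 bases and the other a 232-base frame that is not a whole number of codons, received 76.9 and 393 estimated counts over the 12 samples. Both estimates were fractional in all 12 samples while their sum was whole, so the gene's level is used and the split is uncertain.

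**Figure D1:**
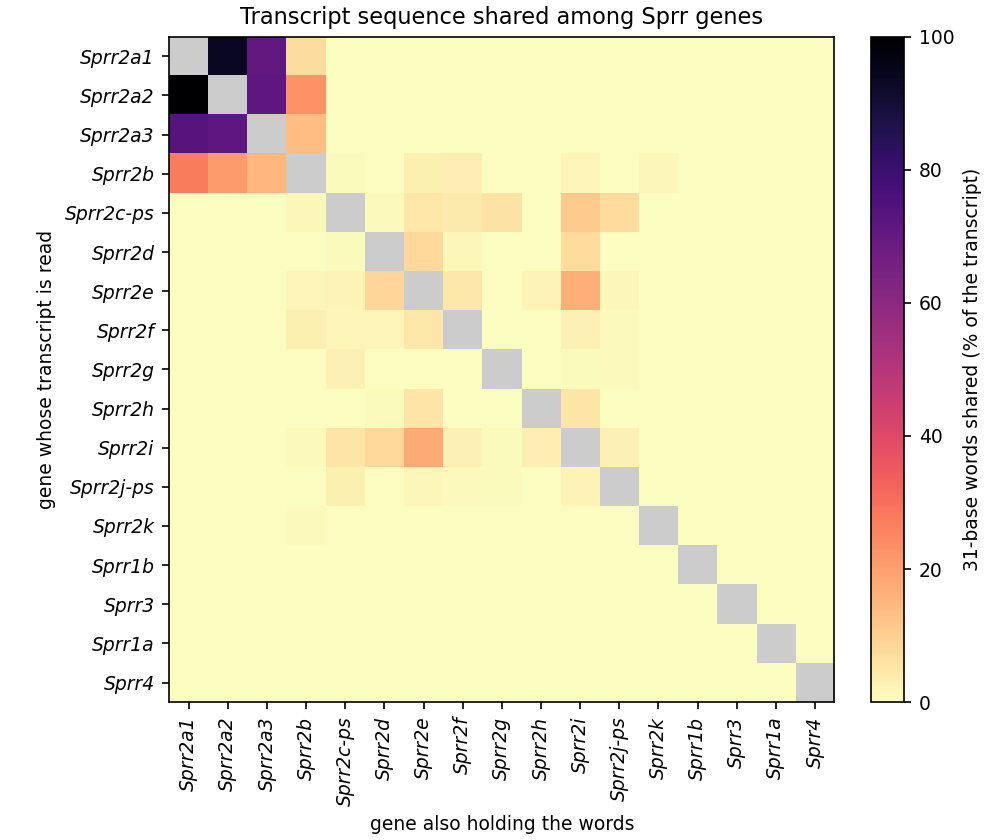
Percent of the 31-base words of each Sprr transcript (rows, longest transcript per gene) that also occur in another Sprr gene (columns), on a colour scale from 0 to 100%, with a gene's own cell in grey. The 3 Sprr2a genes share most of their words with each other and some with Sprr2b, the other members share little, and Sprr1a shares none.

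The start regions are shown because most Sprr2 genes have the same short elements at nearly the same positions, whether or not RNA was found. The windows, from RefSeq (GRCm38.p6), hold up to 250 bases before the transcription start and are printed only where they lie upstream of every annotated start. Windows were matched for 5 of the 6 members, Sprr2g being the other. Capitals mark the AP-1 motif TGAGTCA, the octamer ATTTGCAT and the TATA box TATAAA, searched on both strands. The windows are chr3:92364937-92365186 for Sprr2f, chr3:92338890-92339139 for Sprr2d and chr3:92407741-92407990 for Sprr2i (no counts in any sample), all on the forward strand, and chr3:92485896-92486131 on the reverse strand for Sprr1a.
Sprr2f: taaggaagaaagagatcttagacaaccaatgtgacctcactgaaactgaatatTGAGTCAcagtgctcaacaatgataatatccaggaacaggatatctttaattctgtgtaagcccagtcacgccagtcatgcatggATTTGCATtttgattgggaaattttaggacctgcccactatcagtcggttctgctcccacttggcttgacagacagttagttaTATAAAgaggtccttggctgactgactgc
Sprr2d: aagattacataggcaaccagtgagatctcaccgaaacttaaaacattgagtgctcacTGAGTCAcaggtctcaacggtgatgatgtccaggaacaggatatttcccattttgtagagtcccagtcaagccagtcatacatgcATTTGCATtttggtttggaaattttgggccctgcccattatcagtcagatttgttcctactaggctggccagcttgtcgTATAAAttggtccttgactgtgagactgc
Sprr2i: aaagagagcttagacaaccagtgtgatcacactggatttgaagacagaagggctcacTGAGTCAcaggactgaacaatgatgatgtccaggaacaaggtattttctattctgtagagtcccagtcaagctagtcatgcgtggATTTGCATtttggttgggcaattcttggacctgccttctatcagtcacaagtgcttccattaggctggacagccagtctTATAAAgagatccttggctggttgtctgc
Sprr1a: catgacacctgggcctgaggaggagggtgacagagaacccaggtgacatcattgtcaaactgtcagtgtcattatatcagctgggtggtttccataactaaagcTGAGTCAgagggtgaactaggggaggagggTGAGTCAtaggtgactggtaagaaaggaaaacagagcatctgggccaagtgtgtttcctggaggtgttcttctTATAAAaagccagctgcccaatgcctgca
In windows that also include 50 bases after the start, TGAGTCA occurred in all 5 member windows, in 8 of 14 Sprr windows and in 5.21% of 32817 windows of all genes. ATTTGCAT occurred in 4 of the 5, in 7 of 14 and in 1.74% of all windows, and TATAAA in all 5, in 10 of 14 and in 13.6%. The AP-1 motif began at -197 in Sprr2f, -195 in Sprr2b and -193 in Sprr2d and Sprr2e, and the octamer at -112, -108, -108 and -108. Sprr1a had AP-1 motifs at -146 and -116 and no octamer. Sprr2h, Sprr2i and Sprr2k, with at most 2 counts in the series, held the same 3 elements. The windows of Sprr2a1, Sprr2a2 and Sprr2a3 held none of the 3, and counts were found for Sprr2a2 and Sprr2a3. Only the matched window of each gene was searched. Sprr2a2 and Sprr2a3 have 2 annotated transcripts each, and starts outside these windows were not examined. The full palindromic estrogen response element was in none of the 14 Sprr windows and in 0.0701% of all windows. Its core GGTCA was in Sprr2f alone among the members and in 40.5% of all windows. The letters TTCCNGGAA (STAT) and the interferon-stimulated response element were in no Sprr window and in 1.15% and 3.43% of all windows. These are matches of letters, not measured binding.

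The libraries held 1652841 to 2200563 estimated counts each, and 15741 to 16557 genes had at least 1 count. Levels are given as CPM, counts scaled to the library total with TMM factors. Where a library held 0 counts, up to 3 counts could have been missed, or 1.37 to 1.83 CPM. Of 12052 genes that passed the filter on low counts, 23.2% differed over the 4 stages in edgeR's quasi-likelihood F test (adjusted p under 0.05, Benjamini-Hochberg over all genes tested). All 6 members passed the filter, but Sprr2b, Sprr2d and Sprr2e passed it only through the estrus libraries, so a difference was built into their presence in the test. All 6 also passed the F test, with adjusted p between 1.17e-05 for Sprr2d and 0.00126 for Sprr2f. In whole-tissue RNA, fewer cells of a type and less RNA per cell cannot be told apart. The edgeR p-values of the fit to all 12 samples rest on 1 spread per gene, taken between uteri within the 4 stages together. A comparison of 2 stages therefore also carries the spread of the stages outside it.

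**Figure D2:**
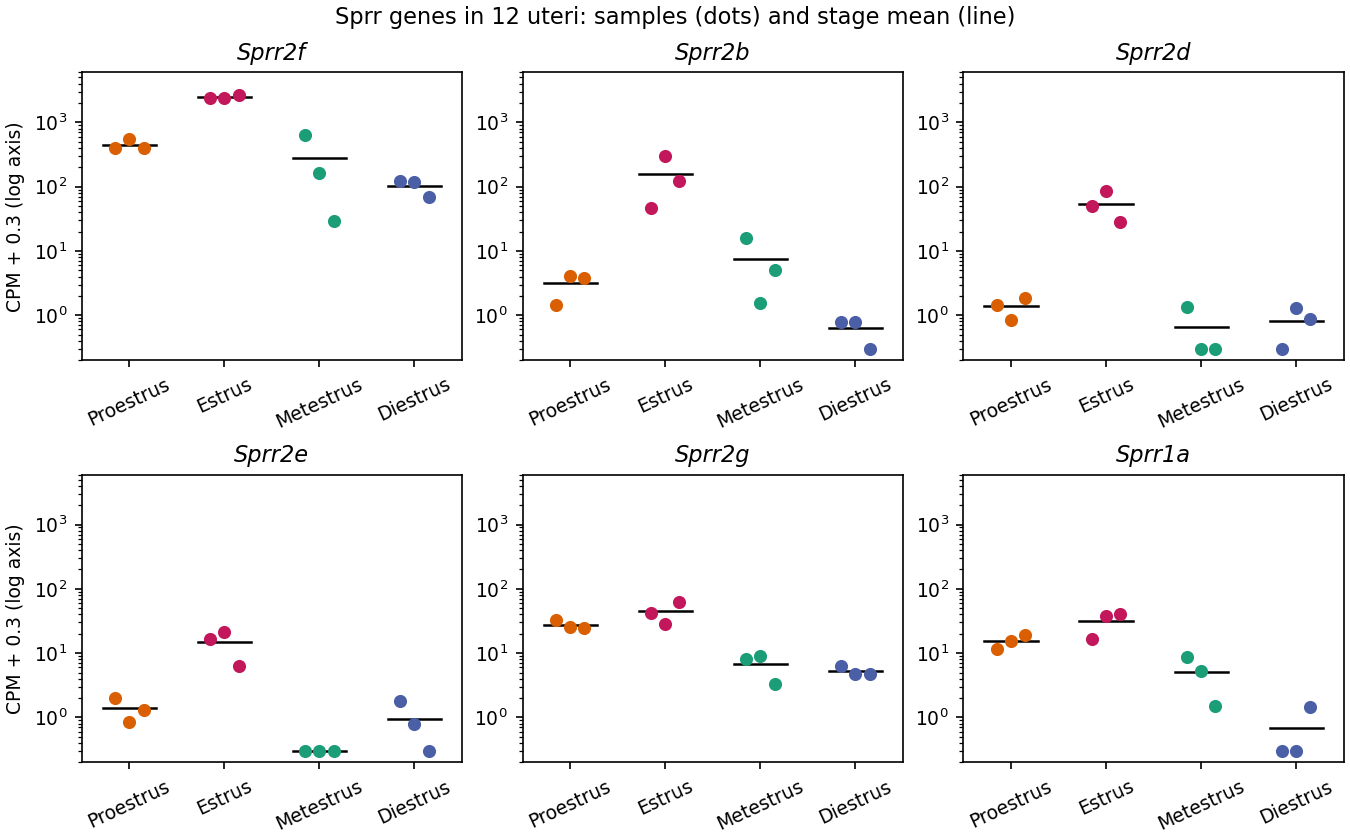
CPM of each of the 6 genes in each of 12 uteri (dots, replicates in numerical order from left to right) on a log axis after adding 0.3, with the stage mean as a line. The estrus mean is the highest of the 4 in every panel, Sprr2f, Sprr2g and Sprr1a are already above 11 CPM in proestrus, and 0 counts appear at the bottom.

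Sprr2f carried most of the family's RNA. It encodes a small proline-rich protein known as a strongly estrogen-induced transcript of the mouse uterine epithelium. Its level was 400, 546 and 395 CPM in proestrus, 2414, 2427 and 2680 CPM in estrus, 638, 161 and 28.6 CPM in metestrus and 121, 118 and 69.6 CPM in diestrus, in order of replicate number. The 3 estrus uteri stood together and above all others, proestrus lay above diestrus, and the metestrus uteri spread from above proestrus (replicate 5) to below diestrus (replicate 7). The stage means were 447 ± 85.8, 2507 ± 150, 276 ± 321 and 103 ± 28.8 CPM (SD, n = 3 each).

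Estrus exceeded proestrus by 2.49 ± 0.67 on the log2 scale (SE; edgeR adjusted p = 0.0224), a ratio of 5.65 between the summed counts per library size. The fold stayed between 2.40 and 2.65 (log2) when any of the 12 samples was left out. It passed the threshold narrowly: the edgeR adjusted p was 0.0822, 0.0558 and 0.0858 without proestrus replicate 1, 2 or 3, and 0.0545 and 0.0587 without estrus replicate 4 or 5, so each of these 5 omissions ended the call. Metestrus lay below estrus by a log2 difference of -3.18 ± 0.69 (edgeR adjusted p = 0.0155). That difference was -4.73 without metestrus replicate 5 and was no longer called without metestrus replicate 6 (adjusted p = 0.0615) or in the 6 samples alone (0.0856). Proestrus against diestrus gave 2.12 ± 0.67 (edgeR adjusted p = 0.0712) and was not called with all 12 samples, although the groups did not overlap. In the 6 samples of those stages alone the adjusted p was 8.05e-05, and it was 0.00470 without metestrus replicate 5 and 0.00268 without metestrus replicate 7. Diestrus against metestrus gave -1.43 ± 0.66 (edgeR adjusted p = 0.443), which became -1.96 and was called without metestrus replicate 7 (0.0435) and turned to 0.13 without metestrus replicate 5. Metestrus against proestrus gave -0.69 ± 0.64 (edgeR adjusted p = 0.591), and -2.24 without metestrus replicate 5 (0.0195). The order of the means was estrus, proestrus, metestrus and diestrus, and in the fit to all 12 samples only estrus was separated from its neighbour by the test.

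The per-length scale (TPM) divides a count by transcript length, whereas 3' tag counts need not grow with length, so shares and ranks between genes are given on both scales. On the TPM scale Sprr2f made up 86.3% ± 1.42 of the summed TPM of the 17 Sprr genes in proestrus, 86.6% ± 4.37 in estrus, 87.3% ± 7.57 in metestrus and 91.8% ± 3.73 in diestrus (SD, n = 3). On the CPM scale its share of the 17 genes was 78.9% ± 2.08, 77.0% ± 7.004, 80.7% ± 9.77 and 88.4% ± 5.56 in the same order, so it held most of the family's RNA on either scale. The family total was 1236 ± 206 TPM in proestrus, 6886 ± 362 in estrus, 723 ± 851 in metestrus and 263 ± 58.2 in diestrus. Among all genes of a library ranked by TPM, Sprr2f stood at place 17 or 18 in the 3 estrus uteri, between 142 and 181 in proestrus and between 426 and 677 in diestrus. In metestrus its place was 117, 363 and 1456 in replicates 5, 6 and 7. Ranked by CPM it stood lower, at place 25 to 35 in estrus, 240 to 314 in proestrus, 1180 to 2264 in diestrus and 203, 870 and 5172 in the 3 metestrus uteri.

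**Figure D3:**
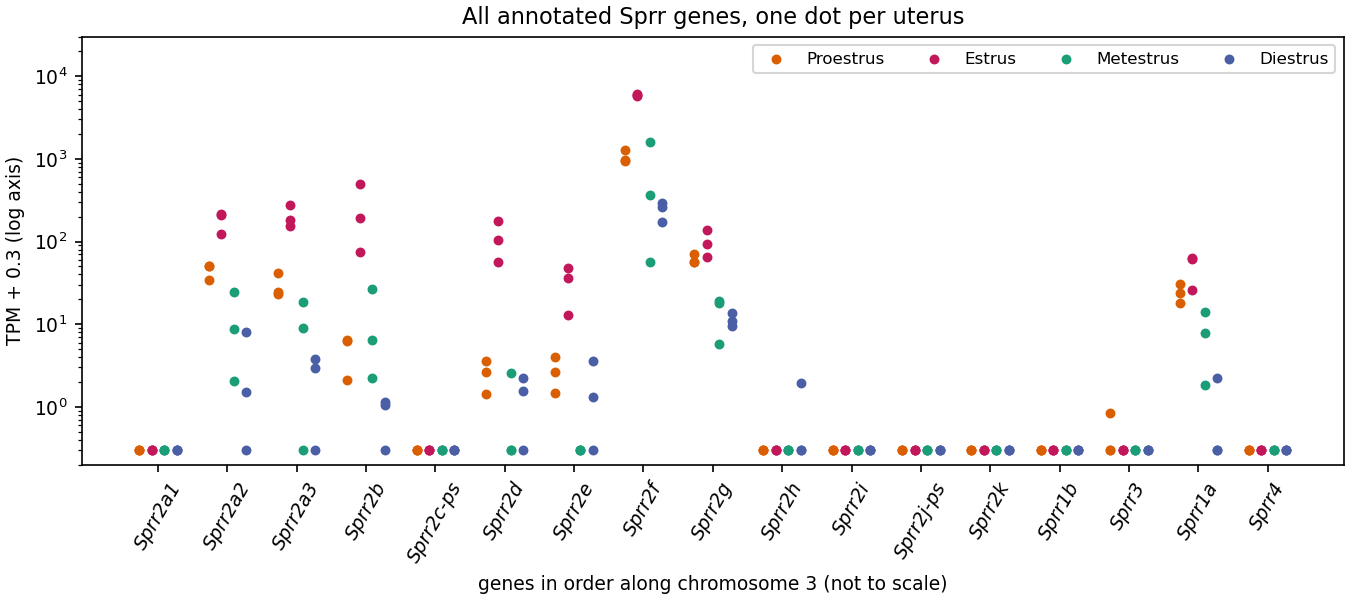
TPM of the 17 annotated Sprr genes in each uterus (dots, coloured by stage) on a log axis after adding 0.3, with genes in their order along chromosome 3, not to scale. Sprr2f stands above every other gene in each stage mean, and 9 genes have no more than 2 counts in all.

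Sprr2b, Sprr2d and Sprr2e, 3 close relatives of Sprr2f, were found almost entirely in estrus. Sprr2b lay at 1.14, 3.77 and 3.55 CPM in proestrus, 45.8, 303 and 123 CPM in estrus, 15.6, 1.26 and 4.77 CPM in metestrus and 0.499, 0.494 and 0 CPM in diestrus. The lowest estrus uterus was above all other samples, and the 3 estrus values differed among themselves more than those of Sprr2f. Sprr2d lay at 1.14, 0.539 and 1.52 CPM in proestrus, 49.5, 84.1 and 27.9 CPM in estrus, 1.04, 0 and 0 CPM in metestrus and 0, 0.989 and 0.566 CPM in diestrus. Outside estrus no library held more than 3 counts of Sprr2d. Sprr2e lay at 1.71, 0.539 and 1.02 CPM in proestrus, 16.1, 21.2 and 5.95 CPM in estrus, 0 CPM in each metestrus uterus and 1.496, 0.494 and 0 CPM in diestrus. Its estrus values rest on 26, 37 and 13 counts.

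From proestrus to estrus Sprr2b rose by 5.75 ± 0.77 on the log2 scale (edgeR adjusted p = 0.000547), or by 4.83 without estrus replicate 4. Sprr2d rose by 5.55 ± 0.59 (edgeR adjusted p = 0.000182) and Sprr2e by 3.64 ± 0.71 (edgeR adjusted p = 0.00561). With Sprr2f, 4 of the 6 members were called in this step, all higher in estrus, where 17.1% of all genes tested were called and 9.67% were called higher. Since 3 of these 4 had passed the filter only through estrus, nothing is read from that count against the background. As ratios of summed counts per library size, estrus was 54.7 times proestrus for Sprr2b (95% counting interval 33.5 to 96.2), 48.3 times for Sprr2d (21.9 to 133) and 12.7 times for Sprr2e (5.59 to 35.8). The intervals come from counts pooled over the 3 uteri of a stage, so they cover counting error only and leave out the spread between uteri. Reads without molecular identifiers are not independent molecules, so the intervals may be too narrow even for counting error.

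All 6 members were lower in metestrus than in estrus, where 7.56% of all genes were called and 4.73% were called lower. Sprr2b, Sprr2d and Sprr2e had passed the filter only through estrus, so nothing is read from that count against the background. Sprr2b fell by 4.37 ± 0.67 on the log2 scale (edgeR adjusted p = 0.00215), with differences of -5.65 without metestrus replicate 5 and -3.45 without estrus replicate 4. Sprr2d had 288 counts in estrus and 2 in metestrus, both in metestrus replicate 5, a ratio of 135 (36.9 to 1118; edgeR adjusted p = 0.000153). Its fitted log2 difference of -6.89 became -9.62 without that uterus, where no metestrus count remained. Sprr2e had 76 counts in estrus and 0 in metestrus, so it was at least 23.7-fold higher in estrus when 3 counts are taken over the metestrus group (edgeR adjusted p = 0.00277). The low end of these genes is set by depth: 2, 3 and 4 counts over 3 libraries cannot be ordered.

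In diestrus against estrus, where 22.8% of all genes were called and 13% were called lower, all 6 members were lower. Here too Sprr2b, Sprr2d and Sprr2e owed their place in the test to estrus, so this count is not read against the background. The estrus to diestrus ratio of summed counts per library size was 455 for Sprr2b (126 to 3762, from 2 diestrus counts), 100 for Sprr2d (34.0 to 489, from 3 counts), 19.9 for Sprr2e (7.44 to 74.7, from 4 counts) and 24.2 for Sprr2f (22.3 to 26.3). The edgeR adjusted p was 0.000109 for Sprr2b, 3.38e-05 for Sprr2d, 0.00220 for Sprr2e and 0.000810 for Sprr2f. The fitted log2 difference of Sprr2b, -8.57, became -7.65 without estrus replicate 4. That of Sprr2d, -6.52, became -7.30 without diestrus replicate 4, and that of Sprr2e, -4.25, became -5.43 without diestrus replicate 3. With limma-voom in place of edgeR, the Sprr2b call was lost (adjusted p = 0.0647). For these 4 genes the ratios to diestrus share the estrus libraries with the ratios to metestrus and proestrus and are not separate evidence.

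**Figure D4:**
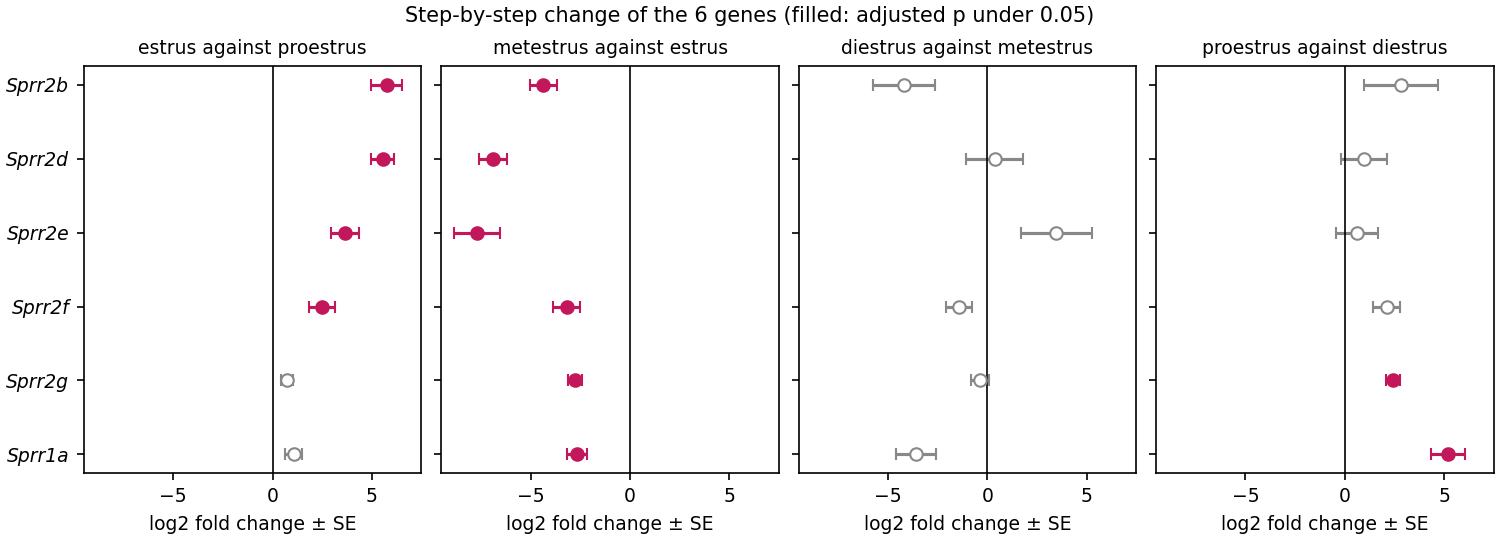
Log2 fold change with its standard error for each of the 6 genes in the 4 consecutive steps of the cycle, from edgeR over all 12 samples, with filled points where the adjusted p was under 0.05. The points are filled for Sprr2b, Sprr2d, Sprr2e and Sprr2f in the first step, for all 6 in the second, for none in the third, and for Sprr2g and Sprr1a in the fourth; fitted values of genes with 0 to 4 counts in a stage depend on the prior count.

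In the fit to all 12 samples, Sprr2g and Sprr1a were the members called both from estrus to metestrus and from diestrus to proestrus. RNA in proestrus was not particular to them, since Sprr2f lay at 395 to 546 CPM there. Outside the members, Sprr2a2 and Sprr2a3 were called in the same steps, as given below. Sprr2g lay at 31.9, 25.3 and 24.4 CPM in proestrus, 42.1, 28.6 and 63.2 CPM in estrus, 7.78, 8.84 and 2.98 CPM in metestrus and 5.98, 4.45 and 4.53 CPM in diestrus. Proestrus and estrus overlapped, metestrus and diestrus overlapped, and the first pair lay above the second in every sample. Sprr1a, of the Sprr1 subfamily, a precursor of the envelope in stratified epithelia, lay at 11.4, 15.1 and 18.8 CPM in proestrus, 16.1, 37.8 and 40.3 CPM in estrus, 8.30, 5.05 and 1.19 CPM in metestrus and 0, 0 and 1.13 CPM in diestrus. Its diestrus libraries held 2 counts in all, both in replicate 5.

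Between proestrus and diestrus, where 8.53% of all genes were called and 4.62% were called higher in proestrus, Sprr1a and Sprr2g were the 2 members called. Sprr2g was higher in proestrus by 2.43 ± 0.37 on the log2 scale (edgeR adjusted p = 0.00156). Sprr1a had 85 counts in proestrus and 2 in diestrus, a ratio of 44.2 (11.9 to 371; edgeR adjusted p = 0.00207). The fitted log2 difference of Sprr1a was 5.20 ± 0.84, and 7.82 without diestrus replicate 5, where no diestrus count remained. Sprr2d (6 and 3 counts) and Sprr2e (6 and 4) were too low in both stages for a difference to be detectable at this depth. Sprr2b (16 and 2 counts) gave a count ratio of 8.31 (1.95 to 74.5, counting error only) but was not called (edgeR adjusted p = 0.423).

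From proestrus to estrus the difference was 0.72 ± 0.29 for Sprr2g (edgeR adjusted p = 0.108) and 1.06 ± 0.44 for Sprr1a (edgeR adjusted p = 0.118) on the log2 scale, and neither was called. Sprr1a was called in the fit to those 6 samples alone (adjusted p = 0.0322). From estrus to metestrus Sprr2g fell by 2.77 ± 0.35 (edgeR adjusted p = 0.000618) and Sprr1a fell by 2.66 ± 0.52 (edgeR adjusted p = 0.00866). The Sprr1a difference was -3.34 without metestrus replicate 5. In diestrus against estrus Sprr2g was lower by a log2 difference of -3.15 ± 0.36 (edgeR adjusted p = 7.90e-05), and the estrus to diestrus count ratio of Sprr1a was 94.0 (25.7 to 782; edgeR adjusted p = 0.000127). The fitted log2 difference of Sprr1a, -6.26, became -8.87 without diestrus replicate 5. Against proestrus, metestrus was lower for Sprr2g by -2.04 ± 0.36 (edgeR adjusted p = 0.0109), the only member called in a comparison that called 4.31% of all genes and 1.82% as lower. That call was lost in the 6 samples alone (adjusted p = 0.0562). Sprr1a gave -1.60 ± 0.54 there (edgeR adjusted p = 0.109), and -2.28 without metestrus replicate 5, again not called.

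Between metestrus and diestrus no member was called by edgeR, and 0.224% of all genes were. The edgeR adjusted p was 0.170 for Sprr1a (26 and 2 counts) and 0.308 for Sprr2b (40 and 2 counts). Metestrus replicate 7 and diestrus replicate 5 each held 2 counts of Sprr1a. Metestrus replicate 6 held 2 counts of Sprr2b and diestrus replicate 3 held 1. At such counts the nearest uteri of these stages cannot be ordered. DESeq2, which gave 5 of the 6 an adjusted p, called none, and limma-voom called none. Sprr2g differed by -0.38 ± 0.45 on the log2 scale (edgeR adjusted p = 0.802). Of the 40 metestrus counts of Sprr2b, 30 came from replicate 5, the same uterus that was highest for Sprr2f, Sprr2d and Sprr1a.

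Whether the members kept a fixed proportion to Sprr2f was tested with the log2 ratio of counts, after adding 0.5 counts, over the 12 samples in an exact permutation test of the 4 stages for each of 5 genes. The mean log2 ratio of Sprr2g to Sprr2f was -4.02 ± 0.39 in proestrus and -5.88 ± 0.50 in estrus (SD, n = 3), and that of Sprr1a was -4.88 ± 0.43 and -6.42 ± 0.68. The ratio of Sprr2b was lower in proestrus than in estrus, with means from -7.30 ± 0.74 in proestrus to -4.39 ± 1.36 in estrus, and that of Sprr2d from -8.44 ± 0.85 to -5.67 ± 0.87. Over the 4 stages no ratio passed after adjustment over the 5 genes. The exact permutation p was 0.0445 for Sprr1a (adjusted 0.114), 0.0456 for Sprr2b (adjusted 0.114), 0.0801 for Sprr2d (adjusted 0.134), 0.123 for Sprr2g (adjusted 0.154) and 0.444 for Sprr2e (adjusted 0.444). Without diestrus replicate 5 the adjusted p of Sprr1a was 0.0182, and without metestrus replicate 5 that of Sprr2g was 0.0448. The ratios of low genes in diestrus and metestrus depend on the counts added.

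The other 11 annotated family members were low or shared their sequence. Sprr2a2 and Sprr2a3 passed the filter, but 65.3% to 100% of the words of the 4 transcripts of these genes recur in other genes, and their gene sums were not whole in 8 samples each, so the sum over Sprr2a1, Sprr2a2 and Sprr2a3 is given first and their single levels are uncertain. The sum was 71.7 ± 21.3 CPM in proestrus, 459 ± 148 in estrus, 24.2 ± 26.8 in metestrus and 5.17 ± 3.38 in diestrus (SD, n = 3). As listed, and with that uncertainty, Sprr2a2 and Sprr2a3 were each called higher in estrus than in proestrus (edgeR adjusted p = 0.00555 and 0.00326), lower in metestrus than in estrus (0.00217 and 0.000473) and higher in proestrus than in diestrus (0.00780 and 0.0116). Sprr2h had 2 counts and Sprr3 had 1, and Sprr2a1, Sprr2c-ps, Sprr2i, Sprr2j-ps, Sprr2k, Sprr1b and Sprr4 had 0. Reads of Sprr2a1 could be listed under its near-copies.

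The simple epithelium in which the Sprr2 genes are known to be expressed also moved in its markers. The summed level of its 12 marker genes, among them the keratins Krt8 and Krt18 and the adhesion molecule Epcam, was 1826 to 2444 CPM in proestrus, 1632 to 2028 in estrus, 1336, 999 and 720 in metestrus replicates 5, 6 and 7, and 709 to 881 in diestrus, and 12 of 12 were called over the stages, beside 23.2% of all genes. The proestrus and estrus sums overlapped, and every metestrus and diestrus uterus was below them. These markers were chosen with earlier results of these data known, so the count called is not read against the background. Single markers did not all follow the sum. Foxa2, a factor of uterine glands, was at 1.95 ± 1.80 CPM in proestrus and 11.4 ± 3.45 in diestrus (edgeR adjusted p = 0.0171), and Cldn3, a tight junction claudin, at 71.3 ± 22.0 and 142 ± 36.8 CPM (0.0199). Cldn4, another claudin, was at 1.83 ± 0.94 CPM in proestrus and 16.5 ± 1.26 in estrus (edgeR adjusted p = 0.000587). These 3 were named after their values were seen. Per 1000 CPM of these markers, Sprr2f was 219 ± 3.84 CPM in proestrus, 1351 ± 117 in estrus, 226 ± 226 in metestrus and 136 ± 49.7 in diestrus (SD, n = 3). On that scale the estrus uteri (1251 to 1480) remained above all others (39.8 to 478), and proestrus (216 to 223) above diestrus (79.0 to 167). Sprr2g per 1000 marker CPM was 13.7 ± 3.58, 23.9 ± 8.38, 6.27 ± 2.39 and 6.50 ± 1.496, and Sprr1a 7.56 ± 2.34, 16.4 ± 5.67, 4.31 ± 2.37 and 0.428 ± 0.742 in the same order of stages.

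Markers of stratified squamous epithelium, the tissue in which these proteins build the cornified envelope and which lines the nearby vagina, were low. Their 16 genes summed to 30.96 to 32.5 CPM in proestrus, 15.5 to 23.4 in estrus, 13.7 to 16.4 in metestrus and 9.89 to 18.1 in diestrus, with Krt6a, Dsg1a and Lypd3 at 0 counts in all samples and 2 of 3 tested genes called over the stages (Serpinb5 and Calml3). Neutrophil markers summed to 8.35 to 37.9 CPM (0 of 2 tested called). The oviduct list rested on 1 tested gene, Ovgp1, called over the stages, and its 5 genes summed to 40.8 to 52.0 CPM in estrus against 7.42 to 29.4 CPM in the other stages. The part of these markers in the Sprr results was not tested. Markers of the uterine wall were present in all samples: smooth muscle markers summed to 5201 to 10590 CPM (3 of 6 called over the stages) and stroma markers, which include Hoxa10 and Hoxa11, to 4133 to 7441 CPM (4 of 6 called).

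Few of the other proteins of the cornified envelope were measurable. Of 18 listed, 3 passed the filter and 1 was called over the stages: Evpl, encoding the desmosome-associated envoplakin, at 10.8 ± 4.69 CPM in proestrus, 4.89 ± 2.01 in estrus, 1.57 ± 0.47 in metestrus and 2.43 ± 0.43 in diestrus (edgeR adjusted p = 0.00416). Ppl, encoding periplakin, was at 15.99 ± 4.43, 24.04 ± 6.39, 18.9 ± 7.26 and 21.2 ± 4.33 CPM (edgeR adjusted p = 0.458), and Sbsn was not called either (0.491). The median log2 difference of the 3 between estrus and proestrus was 0.58, beside 0.02 over all genes tested. Of 4 transglutaminases, the enzymes that cross-link the envelope, Tgm2 alone passed the filter. It was at 233 ± 7.06 CPM in proestrus, 478 ± 24.2 in estrus, 232 ± 17.4 in metestrus and 244 ± 18.6 in diestrus, and rose by 1.04 on the log2 scale from proestrus to estrus (edgeR adjusted p = 0.000250). Tgm2 is expressed in many cell types, and Tgm1, Tgm3 and Tgm5 did not pass the filter.

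The S100 genes encode calcium-binding proteins in the same complex. Of 13 listed, 9 were tested and 3 were called over the stages: S100a16, S100a10 and S100a9, beside 23.2% of all genes. S100a16 was at 64.5 ± 8.90 CPM in proestrus and 33.5 ± 2.44 in estrus (edgeR adjusted p = 0.00363 for that step), so it was lower in the stage in which the Sprr members were highest. S100a10 was at 163 ± 16.6 CPM in estrus and 374 ± 42.0 in diestrus (edgeR adjusted p = 0.00257). S100a9 was at 0.88 ± 0.56 CPM in proestrus, 10.7 ± 13.65 in estrus, 0.82 ± 0.71 in metestrus and 10.9 ± 8.71 in diestrus. Its step from proestrus to estrus was upward but not called (edgeR adjusted p = 0.0649). The median log2 difference of the 9 between estrus and proestrus was -0.31.

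Of 13 transcription factors of epithelial differentiation, 8 were tested and 5 were called over the stages, Elf3, Klf4, Grhl2, Klf5 and Junb, beside 23.2% of all genes. Elf3, an ETS factor of epithelia, was at 254 ± 33.4 CPM in proestrus, 311 ± 33.6 in estrus, 56.8 ± 38.2 in metestrus and 20.0 ± 3.52 in diestrus, with no call between proestrus and estrus (edgeR adjusted p = 0.619) and a fall to metestrus by 2.44 on the log2 scale (0.00220). Klf4 was at 442 ± 102, 227 ± 55.4, 142 ± 42.7 and 82.8 ± 13.4 CPM and was lower in estrus than in proestrus (edgeR adjusted p = 0.0150). Grhl2 was at 22.6 ± 6.58, 16.8 ± 0.34, 13.8 ± 1.82 and 6.81 ± 2.48 CPM, lower in diestrus than in estrus (edgeR adjusted p = 0.00816). Junb, a subunit of AP-1, was at 12.2 ± 2.19, 18.5 ± 1.36, 11.7 ± 3.42 and 7.56 ± 1.17 CPM. It was lower in diestrus than in estrus (edgeR adjusted p = 0.00461) and was not called between proestrus and estrus (0.127). Fos, Jun and Fosl1, listed with it, were not among the 5 called. Klf5 was at 44.9 ± 13.1 CPM in proestrus and 75.3 ± 9.19 in estrus, a rise of 0.75 on the log2 scale (edgeR adjusted p = 0.0253). The median log2 difference of the 8 in diestrus against estrus was -1.29, beside 0.00 over all genes.

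Of 10 genes known to respond to estrogen in uterine epithelium, all 10 were tested and 9 were called over the stages, beside 23.2% of all genes. The list was chosen with earlier results of these data known, so its counts are not read against the background. In diestrus against estrus 8 were called lower, beside 13% of all genes, and 1, Pgr, was called higher, and the median log2 difference was -4.62. From proestrus to estrus 2 of the 10 were called, C3 higher and Pgr lower. C3, encoding complement component 3, was at 752 ± 408 CPM in proestrus and 3612 ± 846 in estrus (edgeR adjusted p = 0.0475). Padi1, a peptidylarginine deiminase, was at 136 ± 29.7 CPM in proestrus and 157 ± 47.7 in estrus (edgeR adjusted p = 0.621), and at 24.9 ± 10.2 and 3.76 ± 0.83 in metestrus and diestrus. Lcn2, encoding lipocalin-2, was at 1024 ± 264, 4218 ± 979, 395 ± 507 and 29.0 ± 16.2 CPM, with estrus against proestrus at 2.04 on the log2 scale (edgeR adjusted p = 0.0772). Pgr, the progesterone receptor, was at 258 ± 32.6 CPM in proestrus and 76.8 ± 4.88 in estrus (edgeR adjusted p = 0.00154).

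Across the 12 samples the log2 CPM of the 15 pairs of members correlated with Pearson r between 0.61 and 0.94 (median 0.80), lowest for Sprr1a with Sprr2e and highest for Sprr2d with Sprr2e. These r describe samples that share stages and a low floor. The 5 genes outside the family with the highest r to the mean standardised log2 CPM of the 6 members were Egln3 (0.98), Itga2 (0.97), Kcne1 (0.97), Stc2 (0.97) and Hk2 (0.97). Egln3, a prolyl hydroxylase of the hypoxia-inducible factor pathway, was at 17.6 ± 6.16 CPM in proestrus, 151 ± 22.9 in estrus, 14.9 ± 16.9 in metestrus and 4.32 ± 0.32 in diestrus. Itga2, an integrin subunit, was at 20.9 ± 6.67, 68.4 ± 20.5, 9.26 ± 3.52 and 7.82 ± 1.10 CPM. Hk2, a hexokinase, was at 27.1 ± 5.57, 88.4 ± 12.5, 20.0 ± 4.16 and 15.7 ± 3.75 CPM.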

How the data were processed

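Whole uteri were profiled by 3' TagSeq, 3 per stage. The deposited tables, 1 for each uterus, list 119414 transcripts. The deposited estimated counts were unscaled, per the file headers, and the deposited TPM values were scaled for length, per the file headers. kallisto, DESeq2 and FastQC are named in the submitters' processing notes; transcript set, build, options and use of strand are not given in the sources used here. Of the transcripts, 116640 (97.7%) matched GENCODE M21 by identifier; the others held 0.619% to 0.774% of each library and were left out.

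Estimated counts were summed per gene, rounded, filtered by stage (filterByExpr; 12052 genes) and fitted with edgeR 4.0.16 (R 4.3.3; TMM factors, quasi-likelihood, 1 coefficient per stage, all 12 samples, 2-sided, Benjamini-Hochberg adjustment, threshold 0.05). The procedure was tested on simulated data with the same spread for every gene, so nothing is read from it about the members. The common biological coefficient of variation was 20.6%. Alternatives were other scalings, DESeq2 1.42.0, limma-voom (limma 3.58.1), other filters, pairs of stages alone, counts scaled from TPM, summed Sprr2 genes and leaving out each sample. The members, gene lists and markers were chosen with earlier results of these data known. Named are the members, the other Sprr genes, up to 4 genes per list with the smallest F-test p, any other listed gene in a count of 5 or fewer, and the 5 outside genes most like the members' mean.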

Additional observations from a re-analysis of the deposited data

How the results depend on the processing

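All 6 members kept their call over the stages and in diestrus against estrus when any sample was left out (6 to 6 members called). With all samples, 23.2% and 22.8% of all genes were called there. The count of members ranged from 3 to 4 in estrus against proestrus, 5 to 6 in metestrus against estrus and 2 to 3 in proestrus against diestrus. It ranged from 0 to 1 in diestrus against metestrus and 1 to 2 in metestrus against proestrus. Sprr2b, Sprr2d and Sprr2e passed the filter only through estrus, so nothing is read from these counts against the background. With limma-voom, the Sprr2b call in diestrus against estrus was lost (adjusted p = 0.0647). Without a filter on low counts, 2 members were called in diestrus against metestrus (Sprr1a and Sprr2b) and 2 in metestrus against proestrus. In the 6 samples alone, where 3 members could be tested, 0 were called in metestrus against proestrus. With the Sprr2 genes summed into 1 feature, 6 were called in proestrus against diestrus and 0 in metestrus against proestrus, 5 of the 6 then sharing 1 value. Directions of uncalled values turned for diestrus against metestrus in Sprr2d and Sprr2e (-1.45 summed), in Sprr2f (0.13 without metestrus replicate 5; range -1.96 to 0.13) and in Sprr2d without metestrus replicate 6 (-0.09), metestrus replicate 7 (-0.12) or diestrus replicate 4 (-0.44; range -0.44 to 3.11), and for Sprr2b in metestrus against proestrus (-0.81 summed). The cause was not tested. With counts scaled from TPM, Sprr2f in estrus against proestrus was not called (adjusted p = 0.0532). The mean likeness of the 5 outside genes to the members was 0.97 by Pearson r and 0.92 by Spearman rho, and the median share of 31-base words was 9.12%, or 19.2% with 21-base words.

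Same-numbered estrus and diestrus samples did not deviate together (correlations -0.04, 0.01 and -0.02). With the replicate block, 6 members were called in diestrus against estrus, and 2935 genes in all beside 3242 without the block in the same 6 samples. The other pairs of stages share at most 1 number, and the block was not fitted to them. Over all genes, counts differed by over 1.5 times from those reported in diestrus against metestrus (27; 153 with DESeq2, 14 with limma-voom, 256 without a filter, 0 in the 6 samples alone and 0 scaled from TPM), metestrus against estrus (911; 299 alone, 410 scaled from TPM), metestrus against proestrus (519; 42 alone, 157 scaled from TPM, 935 without a filter), estrus against proestrus (2064; 1269 scaled from TPM), proestrus against diestrus (1028; 539), diestrus against estrus (2744; 1801) and over the stages (2793; 1674). With 1 sample left out, the counts over all genes ran from 1100 to 2414 in estrus against proestrus, 341 to 1364 in metestrus against estrus, 5 to 173 in diestrus against metestrus, 519 to 1281 in proestrus against diestrus, 78 to 1080 in metestrus against proestrus and 1910 to 3146 in diestrus against estrus. Depth limits Sprr2d and Sprr2e outside estrus.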
